A study of Mus musculus with 16 samples.

Results

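Class I odorant receptors are the older of the mammalian odorant receptor classes, and in the mouse nearly all of their genes lie in a single cluster on chromosome 7. The members described here were the probe sets of that chromosome with a platform symbol from Olfr543 to Olfr691 or from Olfr64 to Olfr69, a rule that used no measured value. It found 117 probe sets of 117 genes, all annotated as protein coding in RefSeq, among 22206 probe sets tested. The same arrays held 974 other odorant receptors, 115 of them also on chromosome 7.

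An olfactory sensory neuron expresses mainly 1 odorant receptor gene, and the receptor protein couples to a stimulatory G protein that opens cation channels through cyclic AMP. Neurons that choose class I receptors sit mostly in the dorsal zone of the mouse epithelium, and the transcription factor Bcl11b is known to hold back class I choice there. Several class I receptors respond to carboxylic acids. The cluster is unusual in its neighbours, since the beta-globin genes and a group of Trim genes lie inside it.

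RNA came from cells sorted from the olfactory mucosa of male and female C57BL/6 mice aged 7 to 12 weeks that carried S100a5-tauGFP. This reporter puts green fluorescent protein (GFP) fused to tau under S100a5, a gene that active olfactory neurons transcribe more. All mice spent 40 h in clean air chambers, and from 26 h on they received undecanal, an aldehyde odorant, or filtered air (vehicle) for 10 s every 20 min. The 4 groups of 4 Clariom S arrays were undecanal titled GFP+, undecanal titled GFP-, vehicle titled GFP+ and vehicle titled GFP-, and each array held cells pooled from 3 mice. Every pool gave an array of each fraction, a pairing that the p-values leave aside by counting all 16 arrays as independent. In all 16 samples the title and the characteristics gave opposite GFP signs. The fractions are therefore named by title, and in 8 of 8 pools S100a5 itself was lower on the GFP+ titled array. Levels are the deposited log2 values, and arrays have no read depth. A group mean under a log2 level of 4.8, the 95th percentile of vomeronasal and bitter receptor probe sets, is called below background. Probe sets of near-identical receptors can share signal, which was not tested.

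Most class I receptors were measurable. Of the 117 members 103 (88%) lay above background in at least 1 group and 97 in all 4 groups, against 908 of 974 other odorant receptors (93.2%) in at least 1 group. The median of the members' mean log2 levels was 8.52, and that of the other receptors was 8.53. By array the median log2 level of the members ran from 8.26 to 8.61 in undecanal arrays titled GFP+, from 8.36 to 8.73 in undecanal arrays titled GFP-, from 7.94 to 8.68 in vehicle arrays titled GFP+ and from 8.16 to 9.18 in vehicle arrays titled GFP-. All 4 groups overlapped in this median. Within each vehicle pool the array titled GFP+ had the lower median. The same held in the undecanal pools other than pool 4, where it was 8.61 against 8.36. For the other receptors the median was likewise lower in each pool other than pool 4 of either agent. The 5 members with the highest means over all arrays were Olfr549, Olfr655, Olfr596, Olfr672 and Olfr598, and the 3 with the lowest were Olfr564, Olfr574 and Olfr568, each below background in every group.

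Class I receptors differed in both directions between the sort fractions, with either agent. A receptor was called when its limma adjusted p over all 22206 probe sets was under 0.05. In undecanal pools the arrays titled GFP+ had 24 members higher and 27 lower than the arrays titled GFP-, where 8.83% and 4.36% of all probe sets were called in those directions. In vehicle pools the counts were 20 higher and 27 lower, against 8.82% and 5.12% of all probe sets. The groups did not overlap for 27 higher and 30 lower members in undecanal pools, against 9.43% and 7.83% of all probe sets, and for 16 higher and 22 lower members in vehicle pools, against 9.83% and 8.26%. The split between directions depended on the scaling. Of the called members 47.1% in undecanal pools and 42.6% in vehicle pools were higher, and with each array centred on its median the shares were 35.9% and 23.4%. That centring moved the median difference of all probe sets to -0.464 in undecanal pools and -0.469 in vehicle pools, against -0.106 and -0.113 with the deposited values.

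Olfr677, a receptor of the MOR32 family, had the largest positive difference. Its log2 level was 11.41, 11.55, 11.80 and 11.32 in undecanal arrays titled GFP+ and 5.65, 5.14, 4.91 and 5.13 in undecanal arrays titled GFP-. In vehicle pools it was 11.25, 11.97, 11.97 and 11.08 in arrays titled GFP+ and 5.65, 5.69, 5.04 and 4.11 in arrays titled GFP-. Every array titled GFP+ lay above every array titled GFP-, and the difference was 6.31 (SE 0.30, limma adjusted p = 6.41e-11), or 79.5-fold, in undecanal pools and 6.44 (SE 0.30, limma adjusted p = 4.10e-11), or 87.0-fold, in vehicle pools. Olfr632, which lies between the beta-globin and Trim genes, came next. It measured 11.16, 11.72, 11.10 and 11.04 in undecanal arrays titled GFP+ and 5.64, 4.76, 5.2 and 4.92 in undecanal arrays titled GFP-. The vehicle arrays gave 11.31, 11.78, 12.18 and 10.44 when titled GFP+ and 5.71, 5.54, 6.35 and 5.02 when titled GFP-. Again the fractions did not overlap, and Olfr632 was higher by 6.13 (SE 0.33, limma adjusted p = 2.47e-10) in undecanal pools and by 5.77 (SE 0.33, limma adjusted p = 5.32e-10) in vehicle pools.

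Next to the beta-globin genes, Olfr69 and Olfr68 were both higher in arrays titled GFP+. Olfr69 stood at 12.22, 13.44, 12.35 and 12.23 in undecanal arrays titled GFP+ and 7.95, 7.03, 6.64 and 6.41 in undecanal arrays titled GFP-, and at 12.66, 13.29, 12.15 and 11.55 in vehicle arrays titled GFP+ and 8.62, 7.51, 6.75 and 6.66 in vehicle arrays titled GFP-. The second pool of each agent was the highest for Olfr69 in arrays titled GFP+, and the first pool of each agent in arrays titled GFP-. The difference was 5.55 (SE 0.45, limma adjusted p = 4.74e-08) in undecanal pools and 5.03 (SE 0.45, limma adjusted p = 1.63e-07) in vehicle pools. Olfr68 stood at 11.51, 13.03, 12.05 and 11.67 in undecanal arrays titled GFP+ and 8.33, 6.75, 5.88 and 7.88 in undecanal arrays titled GFP-. Its vehicle levels were 11.63, 12.38, 11.66 and 11.60 in arrays titled GFP+ and 9.52, 7.85, 7.27 and 7.55 in arrays titled GFP-. The same pools were highest as for Olfr69, and the fractions of Olfr68 differed by 4.86 (SE 0.51, limma adjusted p = 1.34e-06) with undecanal and 3.77 (SE 0.51, limma adjusted p = 2.74e-05) with vehicle. The other 4 receptors beside the globin genes had smaller differences. In undecanal pools Olfr65 was higher by 1.41 (SE 0.32, limma adjusted p = 5.24e-03), while Olfr67 (-0.24), Olfr66 (-1.16) and Olfr64 (0.09) were not called. In vehicle pools the differences were 0.92 for Olfr65 (limma adjusted p = 0.0714), -0.74 for Olfr67, -1.10 for Olfr66 (limma adjusted p = 0.0847) and 0.10 for Olfr64, and none was called. With the pool as a replicate block Olfr65 (limma adjusted p = 0.0350) and Olfr66 (limma adjusted p = 0.0494) were called in vehicle pools at the same differences. The sign of Olfr64 turned with median centring and with quantile normalization.

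For 2 of the highest members the difference was limited by the background. Olfr629 had log2 levels of 8.62, 8.50, 9.14 and 7.80 in undecanal arrays titled GFP+ and 4.49, 3.78, 3.77 and 3.92 in undecanal arrays titled GFP-, and of 8.81, 8.49, 8.92 and 8.66 in vehicle arrays titled GFP+ and 4.15, 4.70, 3.85 and 4.22 in vehicle arrays titled GFP-. Both means titled GFP- lay below background, so Olfr629 was at least 13.1-fold higher in undecanal arrays titled GFP+ and at least 15.1-fold higher in vehicle arrays titled GFP+, where each array titled GFP- was set at its own level or at background, whichever was higher. The limma adjusted p was 3.26e-10 with undecanal and 3.94e-10 with vehicle. Olfr600 was likewise below background in both groups titled GFP- and at least 10.5-fold higher in undecanal and at least 11-fold higher in vehicle arrays titled GFP+ (limma adjusted p = 1.52e-09 and 6.89e-10).

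Among the rest of the 10 highest, Olfr686 differed by 4.08 in undecanal pools and 4.01 in vehicle pools, and Olfr611 by 4.07 and 3.95. The means of Olfr686 in arrays titled GFP-, 4.999 with undecanal and 4.911 with vehicle, lay just above background, and some single arrays lay below it. Olfr672, also of the MOR32 family and bright in both fractions, measured 14.38, 13.98, 13.91 and 13.72 in undecanal arrays titled GFP+ and 10.54, 9.92, 9.95 and 10.52 in undecanal arrays titled GFP-, and 13.90, 13.72, 13.60 and 13.63 in vehicle arrays titled GFP+ and 11.54, 10.50, 10.23 and 11.04 in vehicle arrays titled GFP-. The fractions did not overlap, and the difference of Olfr672 was 3.77 (SE 0.24) in undecanal pools and 2.89 (SE 0.24) in vehicle pools. Olfr681 was the least even of them. In arrays titled GFP+ its 8 values ran from 12.64 to 13.96, against 9.88, 8.46, 12.14 and 9.89 in undecanal and 10.92, 9.37, 11.66 and 8.46 in vehicle arrays titled GFP-. The groups of Olfr681 did not overlap with either agent, with differences of 3.06 (SE 0.66, limma adjusted p = 3.15e-03) in undecanal pools and 3.14 (SE 0.66, limma adjusted p = 2.52e-03) in vehicle pools.

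**Figure D1:**
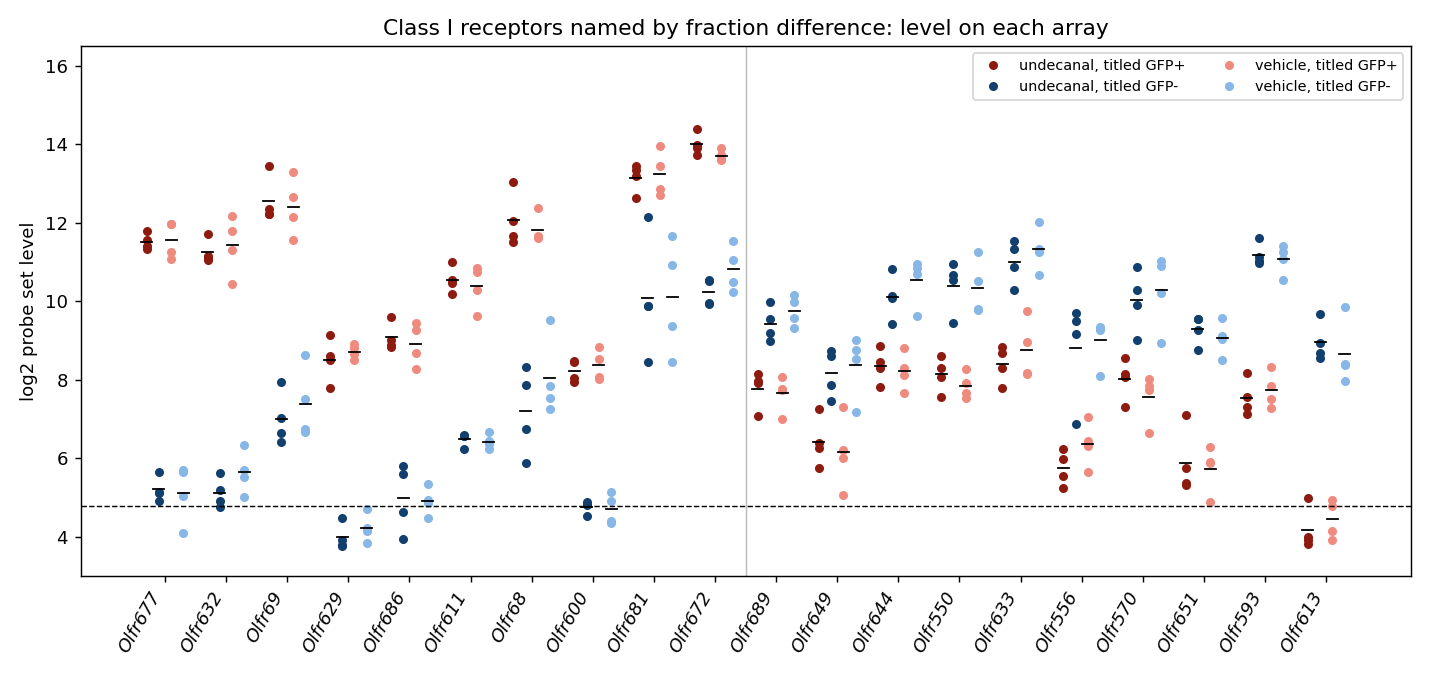
Log2 level of the 10 class I receptors with the highest and the 10 with the lowest difference between sort fractions, on each of 16 arrays. Points are arrays, black bars are group means and the dashed line is the background level of 4.8. Olfr677 sits between 11.08 and 11.97 in arrays titled GFP+ and between 4.11 and 5.69 in arrays titled GFP-, and Olfr613 lies near the background line in arrays titled GFP+.

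Of the members that were lower, Olfr613 had the largest difference. Its log2 level was 3.93, 3.99, 3.81 and 4.99 in undecanal arrays titled GFP+ and 8.67, 8.56, 8.93 and 9.67 in undecanal arrays titled GFP-. With vehicle it was 4.78, 4.16, 3.92 and 4.93 in arrays titled GFP+ and 8.38, 8.41, 7.97 and 9.86 in arrays titled GFP-. Both means titled GFP+ lay below background, and Olfr613 was at least 17.3-fold lower in undecanal arrays titled GFP+ (limma adjusted p = 2.98e-08) and at least 14.2-fold lower in vehicle arrays titled GFP+ (limma adjusted p = 1.44e-07). Olfr593 was measurable on both sides. It had levels of 7.12, 7.56, 7.30 and 8.19 in undecanal arrays titled GFP+ and 11.03, 10.97, 11.12 and 11.60 in undecanal arrays titled GFP-, and of 8.31, 7.51, 7.84 and 7.29 in vehicle arrays titled GFP+ and 11.40, 11.26, 11.07 and 10.53 in vehicle arrays titled GFP-. The difference of Olfr593 was -3.64 (SE 0.26, limma adjusted p = 8.62e-09) in undecanal pools and -3.33 (SE 0.26, limma adjusted p = 2.75e-08) in vehicle pools.

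Olfr651, the first receptor after the Trim genes, had log2 levels of 5.75, 5.32, 5.36 and 7.11 in undecanal arrays titled GFP+ and 8.76, 9.56, 9.54 and 9.27 in undecanal arrays titled GFP-. In vehicle pools they were 5.9, 5.88, 6.29 and 4.89 in arrays titled GFP+ and 9.05, 9.11, 9.59 and 8.52 in arrays titled GFP-. The fractions of Olfr651 did not overlap, and it was lower, at -3.40 (SE 0.36, limma adjusted p = 1.65e-06) with undecanal and -3.32 (SE 0.36, limma adjusted p = 2.06e-06) with vehicle. Olfr556 was less even among the arrays titled GFP-. It measured 5.55, 6.00, 6.25 and 5.26 in undecanal arrays titled GFP+ and 9.50, 9.17, 9.71 and 6.88 in undecanal arrays titled GFP-, and 6.43, 6.32, 7.04 and 5.65 in vehicle arrays titled GFP+ and 9.31, 9.26, 9.34 and 8.10 in vehicle arrays titled GFP-. Pool 4 was the lowest of each group titled GFP-, and the differences were -3.05 (SE 0.49, limma adjusted p = 1.78e-04) and -2.64 (SE 0.49, limma adjusted p = 7.66e-04) with undecanal and vehicle. The other 6 of the 10 lowest differed by -2.61 (Olfr633), -2.26 (Olfr550), -2.0 (Olfr570), -1.76 (Olfr644), -1.76 (Olfr649) and -1.64 (Olfr689) in undecanal pools. In vehicle pools their differences were -2.56 for Olfr633, -2.49 for Olfr550, -2.72 for Olfr570, -2.30 for Olfr644, -2.21 for Olfr649 and -2.11 for Olfr689. All 6 were called with both agents, and the call of Olfr649 in undecanal pools (limma adjusted p = 0.0129) was lost without undecanal replicate 1, 2 or 3, with a limma adjusted p of 0.0992 without replicate 1, 0.0672 without replicate 2 and 0.0866 without replicate 3.

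RefSeq (GRCm38.p6) start windows, from 250 bases before to 50 bases after the annotated gene start, are shown for 2 receptors that were higher and 2 that were lower in arrays titled GFP+, because these receptors had some of the largest differences and an annotated start upstream of the coding sequence. Each is printed along the gene's own strand, and capitals mark TATAAA or TAATTG read on either strand.
Olfr69, chr7:103771545-103771844, minus strand: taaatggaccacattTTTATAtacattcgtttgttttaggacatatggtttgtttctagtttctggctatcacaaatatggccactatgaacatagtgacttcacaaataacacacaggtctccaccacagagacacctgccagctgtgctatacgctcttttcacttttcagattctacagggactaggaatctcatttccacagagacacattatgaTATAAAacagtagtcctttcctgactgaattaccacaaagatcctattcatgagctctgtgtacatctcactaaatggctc
Olfr629, chr7:103741273-103741572, minus strand: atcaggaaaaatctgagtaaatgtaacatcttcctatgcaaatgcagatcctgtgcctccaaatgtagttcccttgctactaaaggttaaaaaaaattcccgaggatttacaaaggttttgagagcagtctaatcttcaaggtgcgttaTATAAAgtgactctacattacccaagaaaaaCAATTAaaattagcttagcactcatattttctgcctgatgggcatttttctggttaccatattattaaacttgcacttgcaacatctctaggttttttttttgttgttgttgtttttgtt
Olfr613, chr7:103550118-103550417, plus strand: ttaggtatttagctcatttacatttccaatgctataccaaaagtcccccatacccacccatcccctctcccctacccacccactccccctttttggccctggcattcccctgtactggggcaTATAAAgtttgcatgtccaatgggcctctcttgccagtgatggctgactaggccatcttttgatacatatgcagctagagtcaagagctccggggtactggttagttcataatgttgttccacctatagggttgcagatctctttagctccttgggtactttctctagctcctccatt
Olfr651, chr7:104552634-104552933, plus strand: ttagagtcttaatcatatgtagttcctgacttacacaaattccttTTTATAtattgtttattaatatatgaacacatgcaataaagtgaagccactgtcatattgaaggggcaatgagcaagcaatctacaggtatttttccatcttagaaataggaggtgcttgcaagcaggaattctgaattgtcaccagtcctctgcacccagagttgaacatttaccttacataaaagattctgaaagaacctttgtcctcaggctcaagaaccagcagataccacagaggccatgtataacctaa
RefSeq gave a window for 101 of the 117 members, and in 74 of these the annotated start was the coding start, so most windows show sequence before the coding start and not before the transcription start. TATAAA, the letters of a TATA box, occurred on either strand in 40.6% of the members' windows, 41.1% of those of the other odorant receptors and 13.6% of all 32851 windows. The letters of homeodomain sites such as those of Lhx2 were TAATTA, in 13.9% of the members' windows, 19.1% of other receptors' and 5.29% of all, and TAATTG, in 20.8%, 23.5% and 8%. No overlap between these motifs was removed. The Olf/Ebf palindrome occurred in 0% of the members' windows, 0.590% of other receptors' and 0.904% of all. These shares describe letters in fixed windows only.

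The fraction differences repeated between agents. Undecanal and vehicle pools share no array, but both sets of calls came from the same fit. That fit gave each receptor the same SE with either agent, so the calls are not independent between agents. Of the members called higher 18 were common to both agents, which is 75% of the undecanal and 90% of the vehicle calls. Of those called lower 25 were common, 92.6% of each list, and 0 members were called in opposite directions. Across the 117 receptors the 2 sets of differences correlated with r = 0.979 and rho = 0.956, as a description, since genes are not independent replicates and all arrays share a platform and a scaling. In 26 members the array titled GFP+ was the higher one in all 8 pools, and in 32 it was the lower one in all 8. Neither these counts nor the shared calls were worked out for all probe sets. Only 4 members differed by more than 1 between agents, by 1.19 at most, in Olfr678. Called in undecanal pools alone were Olfr596, Olfr598, Olfr605, Olfr65, Olfr653 and Olfr665 as higher and Olfr575 and Olfr638 as lower, and in vehicle pools alone Olfr555 and Olfr599 as higher and Olfr616 and Olfr635 as lower. None of these receptors was called for the interaction, the test of a change between agents.

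**Figure D2:**
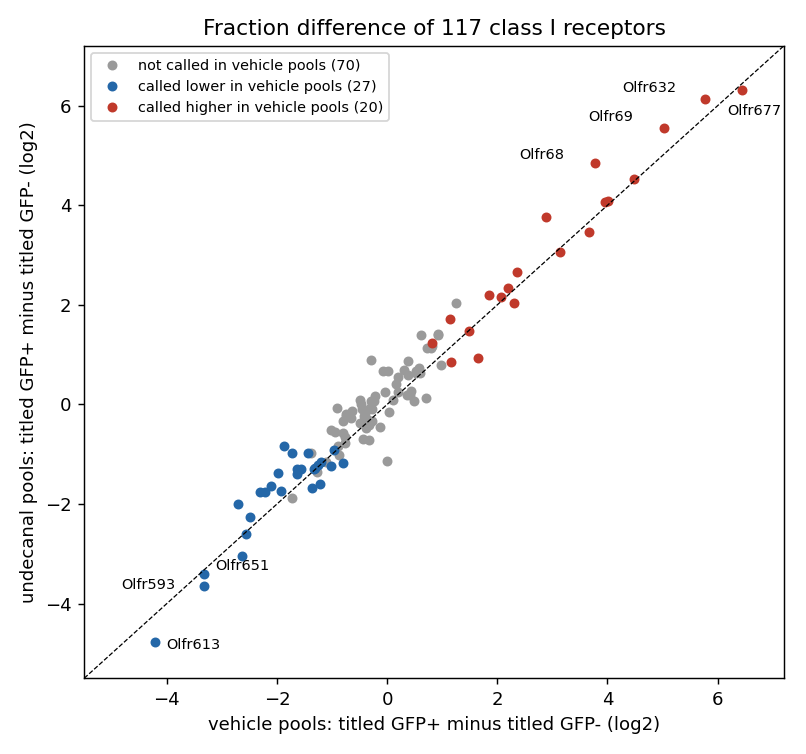
Difference between sort fractions, titled GFP+ minus titled GFP- on the log2 scale, of 117 class I receptors in undecanal pools (vertical axis) against vehicle pools (horizontal axis). Each point is a receptor, coloured by its call in vehicle pools, and the dashed line marks equal differences. The points follow the line, from Olfr613 at the lower left to Olfr677 at the upper right.

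Set beside the other odorant receptors, the members had the smaller quartile range and the lower share of calls, given here as descriptions of fixed lists with no test of one list against another. The quartiles of the members were -0.97 and 0.80 in undecanal pools and -1.01 and 0.60 in vehicle pools. For the other odorant receptors these quartiles were -1.45 and 0.95 in undecanal pools and -1.55 and 0.90 in vehicle pools. The median size, without sign, was 0.89 in undecanal pools and 0.82 in vehicle pools for the members, against 1.28 and 1.33 for all other receptors and 1.34 and 1.30 for the others of chromosome 7. That of all probe sets was 0.22 in undecanal pools and 0.23 in vehicle pools. Standard errors were alike, with a median of 0.33 for the members and 0.32 for the other receptors. Of all 117 members 51 (43.6%) were called in undecanal pools and 47 (40.2%) in vehicle pools, against 580 (59.5%) and 594 (61%) of 974 other receptors and 13.2% and 13.9% of all probe sets. The members' signed median was -0.14 in undecanal pools, which turned to 0.03 with arrays centred on the mature neuron list. In vehicle pools it was -0.34, negative under every scaling tried. All other receptors had signed medians of -0.249 in undecanal and -0.375 in vehicle pools. Those of the others of chromosome 7 were -0.6 and -0.8, and those of all probe sets -0.106 and -0.113.

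**Figure D3:**
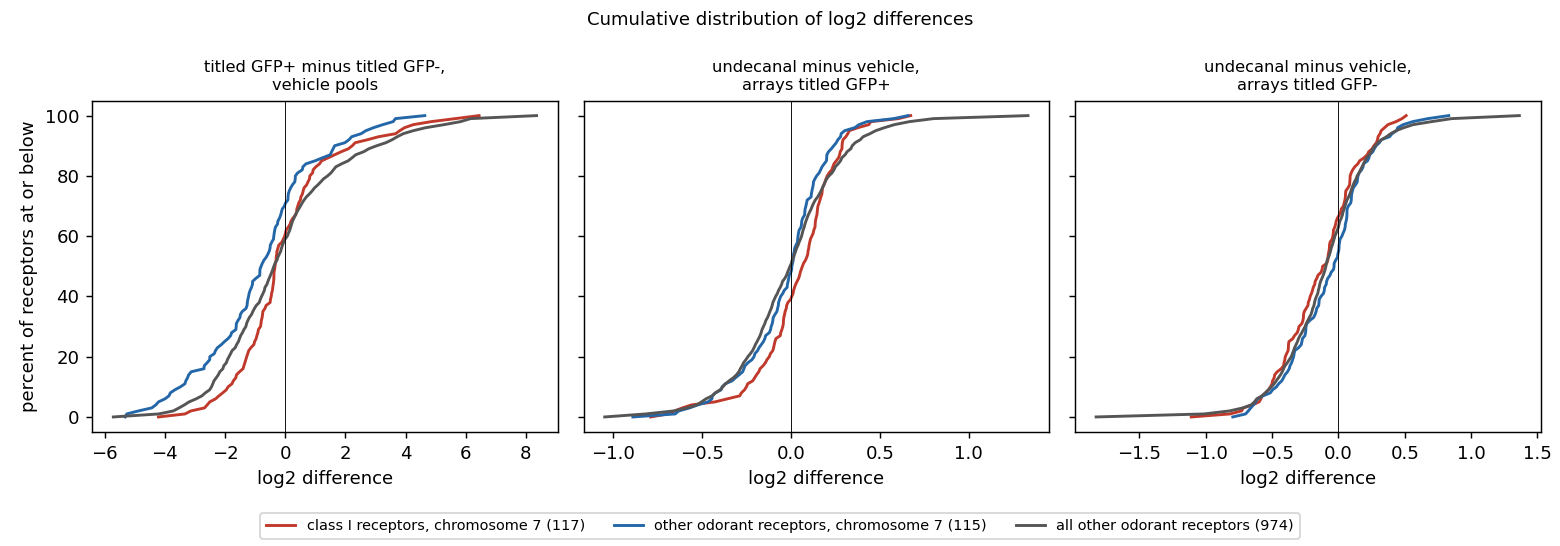
Cumulative share of receptors (percent, vertical axis) against their log2 difference (horizontal axis) between sort fractions of vehicle pools and between undecanal and vehicle in each fraction. Red is the class I receptors of chromosome 7, blue the other odorant receptors of that chromosome and grey all other odorant receptors. The red line is the steepest of the fraction panel, and the lines of the agent panels lie closer to 0.

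RefSeq synonyms placed 114 members in 41 families of the MOR nomenclature, which groups mouse odorant receptors by sequence, and 9 families had 4 or more members. A member with synonyms of several class I families was counted only under the first listed. In MOR31, the largest with 11 members, 0 were higher and 4 lower with either agent, Olfr618, Olfr648, Olfr649 and Olfr651, and the median difference was -0.77 in undecanal and in vehicle pools. MOR32, with 10 members, went both ways with both agents, as Olfr671, Olfr672 and Olfr677 were higher, and Olfr670 and Olfr675 were lower. Olfr592, counted under MOR0, also carries a MOR32 synonym and was called lower with both agents. Of the 7 MOR14 members 0 were called with either agent. In that family Olfr564, Olfr568, Olfr574, Olfr583 and Olfr585 lay below background in every group, so only Olfr561 and Olfr566 were measurable. The 8 members of MOR40 gave 1 higher (Olfr684) and 2 lower (Olfr683 and Olfr689), and MOR24, with 4 members, held Olfr593 (lower), Olfr591 (lower) and Olfr601 (higher) with both agents and Olfr605 (higher) with undecanal alone. In vehicle pools 7 of the 41 families had calls in both directions, among them 4 of the 9 families with 4 or more members. A family with 1 member could not have both.

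Neighbouring receptors of the cluster were called in the same direction in some pairs and in opposite directions in others. In gene order along chromosome 7, 68 members lie before the beta-globin genes, 16 between them and the Trim genes, and 33 after the Trim genes. In vehicle pools these stretches held 11 higher and 15 lower, 1 higher and 5 lower, and 8 higher and 7 lower members. In undecanal pools they held 12 and 15, 2 and 5, and 10 and 7. Across 116 pairs of neighbouring members in vehicle pools the differences correlated with r = 0.0227 and rho = 0.0636, as a description over genes of the same arrays. In 10 neighbouring pairs 1 gene was called higher and the other lower, among them Olfr610 and Olfr611, Olfr611 and Olfr612, and Olfr632 and Olfr633. In 14 pairs both were called the same way, 5 higher and 9 lower, such as Olfr69 with Olfr68 and Olfr592 with Olfr593. How many pairs of each kind a random order of the same calls would give was not tested.

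**Figure D4:**
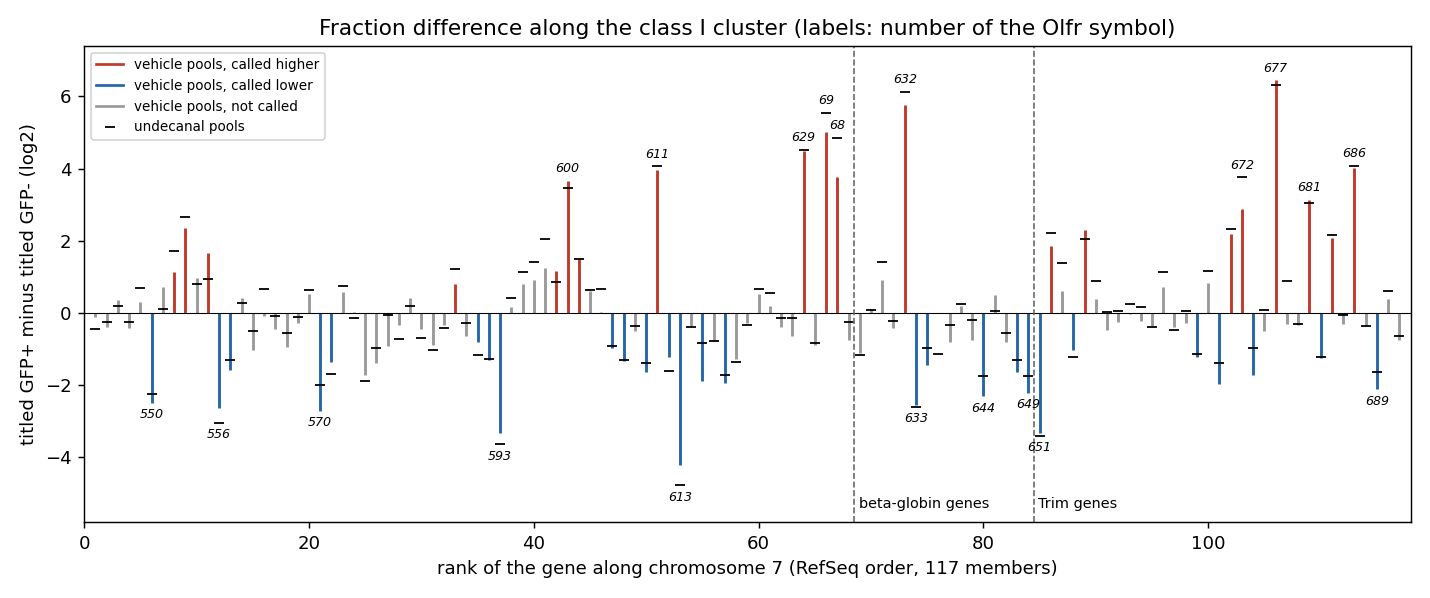
Difference between sort fractions (log2, titled GFP+ minus titled GFP-) of 117 class I receptors in their order along chromosome 7. Bars are vehicle pools, coloured by call, short black marks are undecanal pools, and dashed lines mark the places of the beta-globin and Trim genes. Some neighbours have differences of opposite sign, such as Olfr632 and Olfr633, and others of the same sign, such as Olfr69 and Olfr68.

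Markers of other cells moved with the fractions. All 8 neutrophil and monocyte markers were higher in arrays titled GFP+ with both agents, and their mean log2 level ran from 14.21 to 14.99 in undecanal arrays titled GFP+ and from 4.602 to 5.193 in undecanal arrays titled GFP-, and from 14.51 to 15.06 in vehicle arrays titled GFP+ and from 4.57 to 5.42 in vehicle arrays titled GFP-. Of 10 immature neuron markers 5 were higher in undecanal and 7 in vehicle pools. Their mean level ran from 11.62 to 12.07 in undecanal and from 11.77 to 12.08 in vehicle arrays titled GFP+, against 10.02 to 10.23 and 10.03 to 10.31 in those titled GFP-. The mean level over the 13 mature neuron markers ran from 16.17 to 16.51 by array. In vehicle pools it was at most 16.25 in arrays titled GFP+ and at least 16.36 in those titled GFP-, without overlap. In undecanal pools the ranges overlapped slightly, at 16.17 to 16.31 in arrays titled GFP+ and 16.3 to 16.51 in those titled GFP-. Of these 13 markers 1, the chloride channel Ano2, was called lower with each agent. Cngb1, a subunit of the olfactory cation channel, was the 1 of these 13 below background in 3 of the 4 groups. The part of these cells in the receptor differences was not tested, and fewer neurons of a receptor and less receptor RNA per neuron cannot be told apart. Markers of the dorsal zone (Nqo1, Acsm4 and Robo2) and of the ventral zone (Ncam2 and Nrp2) were not called with either agent. Of 13 genes of receptor choice and expression 1 was called, Lbr, a nuclear envelope protein that neurons silence for receptor choice, higher by 0.99 in undecanal pools (limma adjusted p = 3.61e-05) and by 1.07 in vehicle pools (limma adjusted p = 1.52e-05). Bcl11b differed by -0.0037 (SE 0.22) in undecanal pools and by -0.17 (SE 0.22) in vehicle pools.

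No class I receptor passed the test for undecanal in either fraction. In arrays titled GFP+ limma called 0 of 117 members, undecanal against vehicle, where 0.0045% of all probe sets were called, and 3 members had an unadjusted p under 0.05, against 2.72% of all probe sets. For 0 members did the undecanal and vehicle arrays separate, against 1.87% of all probe sets. The smallest unadjusted p belonged to Olfr555, Olfr606 (-0.67), Olfr638 (-0.62), Olfr599 (-0.70) and Olfr559 (0.67), each with a limma adjusted p of 0.999. Olfr555 was below background in every group. The median difference of the members was 0.06, and that of the other receptors was -0.0056. It was -0.08 without vehicle replicate 4.

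In arrays titled GFP- limma also called 0 of 117 members, undecanal against vehicle, as it did 0% of all probe sets, and 5 members had an unadjusted p under 0.05, against 4.12% of all probe sets. Olfr678, of the MOR32 family, had the smallest p. Its log2 levels were 6.50, 6.06, 6.24 and 6.76 in undecanal arrays and 9.03, 6.84, 6.93 and 7.2 in vehicle arrays titled GFP-. All undecanal arrays lay below all vehicle arrays, and vehicle replicate 1 stood above the rest. The difference was -1.11 (SE 0.38, limma adjusted p = 1) and -0.60 without vehicle replicate 1. Olfr678 was the 1 member whose groups did not overlap here, against 2.20% of all probe sets. Olfr606 (-0.73), Olfr672 (-0.59), Olfr605 (-0.50) and Olfr628 (-0.48) followed. For Olfr606 the levels were 5.88, 5.72, 6.47 and 5.99 with undecanal and 6.71, 5.99, 7.26 and 7.00 with vehicle in arrays titled GFP-, and 5.63, 5.25, 4.78 and 4.77 with undecanal and 5.29, 5.63, 6.21 and 5.96 with vehicle in arrays titled GFP+. The groups of Olfr606 overlapped in both fractions. Of the members 78 of 117 had a negative difference, with a median of -0.12, and so had 613 of 974 other receptors, with a median of -0.09. The members' median was 0.04 without vehicle replicate 1, and 0.0064 with arrays centred on the median of the other odorant receptors.

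The interaction asked whether undecanal changed the difference between fractions. In limma 0 of 117 members were called, as were 0% of all probe sets, and 4 members had an unadjusted p under 0.05, against 2.63% of all probe sets. The smallest p were those of Olfr638 (-1.13, SE 0.41), Olfr672 (0.88, SE 0.34), Olfr678 (1.19, SE 0.54), Olfr605 (0.66, SE 0.30) and Olfr653 (0.78, SE 0.38), each with a limma adjusted p of 1. The value of Olfr678 was 0.65 without vehicle replicate 1. In Olfr638 the fraction difference was -1.13 in undecanal pools (limma adjusted p = 0.0129) and 0.0016 in vehicle pools (limma adjusted p = 0.997), and that contrast between agents did not pass. With its own SE of 0.54, the interaction of Olfr678 did not reach the threshold over 22206 probe sets. The median standard error of the members was 0.46.

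Receptors with published ligands were named whatever their values. Olfr544, Olfr545, Olfr558, Olfr690 and Olfr691 are reported to respond to carboxylic acids, and none of them was called in any comparison. Olfr544, a receptor for azelaic acid, measured 8.06, 7.89, 9.23 and 8.91 in undecanal arrays titled GFP+ and 7.84, 8.37, 9.48 and 7.63 in vehicle arrays titled GFP+. In arrays titled GFP- it measured 8.60, 8.89, 9.24 and 8.36 with undecanal and 9.03, 8.47, 8.80 and 8.61 with vehicle. The agents overlapped in both fractions, with differences of 0.19 (SE 0.35) in arrays titled GFP+ and 0.04 (SE 0.35) in arrays titled GFP-. The undecanal differences of Olfr545, Olfr558, Olfr690 and Olfr691 ran from -0.05 (Olfr558) to 0.17 (Olfr690) in arrays titled GFP+ and from -0.15 (Olfr691) to 0.29 (Olfr545) in arrays titled GFP-. Between fractions the 5 differed by -0.25 (Olfr544), 0.18 (Olfr545), 0.27 (Olfr558), 0.60 (Olfr690) and -0.65 (Olfr691) in undecanal pools, and by -0.40 (Olfr544), 0.37 (Olfr545), 0.42 (Olfr558), 0.38 (Olfr690) and -0.76 (Olfr691) in vehicle pools. Olfr691 was called lower in vehicle pools with median centring (-1.11, limma adjusted p = 0.0376).

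Of the 5 members with the highest means, Olfr655 and Olfr672 were called with both agents, Olfr596 and Olfr598 in undecanal pools alone and Olfr549 with neither. Olfr655 measured 14.09, 13.79, 13.88 and 13.51 in undecanal arrays titled GFP+ and 12.24, 10.79, 11.78 and 12.29 in undecanal arrays titled GFP-, and 14.65, 13.54, 13.69 and 13.12 in vehicle arrays titled GFP+ and 13.01, 10.83, 10.60 and 11.39 in vehicle arrays titled GFP-. Its fractions did not overlap and differed by 2.04 (SE 0.44, limma adjusted p = 3.34e-03) with undecanal and 2.30 (SE 0.44, limma adjusted p = 1.17e-03) with vehicle. Its neighbour Olfr654 was lower, with differences of -1.23 in undecanal pools and -1.03 in vehicle pools. Olfr549 was not called, with differences of 0.68 in undecanal pools (limma adjusted p = 0.0531) and 0.30 in vehicle pools. Olfr596 and Olfr598 were higher in undecanal pools, by 1.13 and 2.04, and differed by 0.80 (limma adjusted p = 0.0726) and 1.25 (limma adjusted p = 0.0965) in vehicle pools. Of the 14 members below background in all groups 1 was called, Olfr555, higher in vehicle arrays titled GFP+ at means of 4.33 in arrays titled GFP+ and 2.67 in those titled GFP-, and 0 were called in undecanal pools.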

How the data were processed

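Clariom S arrays measured mRNA of 8 pools of 3 mice, with 2 sort fractions each. The authors' log2 summaries, 1 per probe set, were used as deposited, and the submitters' processing notes name Affymetrix Expression Console. Its algorithm is not given in the sources used here, nor is the annotation build. Of 28846 rows 6640 controls were left out. limma 3.58.1 in R 4.3.3 fitted 4 group means to 16 arrays without a block, with Benjamini-Hochberg adjustment over 22206 probe sets and a threshold of 0.05. The fit was tested on simulated data. Alternatives covered scaling, dim probe sets, prior variance, array weights, blocks and left-out pools. Same-numbered arrays of 1 agent come from the same mice per the labels, and their deviations from group means correlated with r from 0.0502 to 0.271. Gene order, synonyms and windows are from RefSeq GRCm38.p6. Protein identity between members was not used here. Members and lists were chosen with earlier results of these data known. Named were, by rule, the 10 highest and 10 lowest called fraction differences of constant sign over the vehicle pools, the 5 smallest p for undecanal and the interaction, the brightest and dimmest members, published-ligand receptors, Olfr64 to Olfr69 and the marker lists; the families and neighbours named beside them were chosen after their values were seen. Lists of sustentacular, microvillar and basal cells, erythroid cells, activity-raised genes and trace amine receptors were also measured, and in vehicle pools 4 of 6, 5 of 5, 2 of 5 and 2 of 2 were higher, 5 of 5 activity-raised genes were lower, and 5 of 14 trace amine receptors were higher and 6 lower.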

Additional observations from a re-analysis of the deposited data

Results flagged for a closer look

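In 13 of 180 groups of 4 arrays of the 45 named receptors the highest or lowest array stood apart from the other 3 by more than Dixon's 95% limit, where chance flags about 1 in 20 groups. The second pools gave Olfr632 (11.72, others 11.04 to 11.16) and Olfr69 (13.44, others 12.22 to 12.35) in undecanal arrays titled GFP+ and Olfr68 (12.38, others 11.6 to 11.66) in vehicle arrays titled GFP+. The fourth pools gave Olfr613 (4.991, others 3.808 to 3.989) and Olfr558 (7.645, others 7.107 to 7.139) in undecanal arrays titled GFP+ and Olfr611 (6.231, others 6.558 to 6.592) in undecanal arrays titled GFP-. They also gave Olfr556 (8.096, others 9.259 to 9.339) and Olfr598 (9.875, others 12.02 to 12.43) in vehicle arrays titled GFP-. The first pools gave Olfr558 (7.568, others 6.773 to 6.805) in undecanal arrays titled GFP-, Olfr628 (7.063, others 7.339 to 7.387) in vehicle arrays titled GFP+, and Olfr678 (9.031, others 6.842 to 7.196) and Olfr596 (12.6, others 11.61 to 11.74) in vehicle arrays titled GFP-. The third undecanal pool gave Olfr568 (3.749, others 2.946 to 3.022) in the array titled GFP+, below background.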

How the results depend on the processing

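Median centring raised the members called lower to 41 in undecanal and 59 in vehicle pools. It moved their median fraction difference to -0.49 and -0.69, and that of all probe sets to -0.464 and -0.469. Centring on the median of the other odorant receptors moved the members' median to 0.00638 for undecanal in arrays titled GFP-, to -0.12 between fractions of vehicle pools and to 0.0127 for the interaction. With the pool as a random replicate block 28 members were higher and 32 lower in undecanal pools, and 22 and 33 in vehicle pools, and it changed the call of no named result other than Olfr65 and Olfr66. As a fixed replicate block, chosen after seeing the data, the pool gave 25 and 31 in undecanal pools and 24 and 35 in vehicle pools. With 1 pool left out, 20 to 26 were higher and 20 to 30 lower in undecanal pools, and 17 to 19 and 22 to 28 in vehicle pools. The share of all probe sets called between fractions under these alternatives was not counted. The members' median with 1 pool left out ran from -0.0802 (without vehicle replicate 4) to 0.13 for undecanal in arrays titled GFP+. It ran from -0.36 to 0.0355 (without vehicle replicate 1) in arrays titled GFP-, and from 0.0152 to 0.27 for the interaction. Counts for undecanal and the interaction were 0 under every alternative. Olfr64 between fractions of vehicle pools turned to -0.25 with median centring, -0.0688 with quantile normalization, and ran from -0.00419 to 0.23 with 1 pool left out (-0.00151 without vehicle replicate 2 and -0.00419 without vehicle replicate 4). Of the other outcomes of named receptors 1124 kept direction and call, 15 gained a call (Olfr65, Olfr66, Olfr67 and Olfr691 in vehicle pools) and 3 lost one (Olfr649). Some of these outcomes could hardly change, since leaving out a pool of 1 agent does not alter the fraction differences of the other agent. The causes were not tested. The number of arrays and the background level limit what could be measured.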
